A study of Mus musculus with 8 samples.

Results

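The genes that make heme, open its ring and sense its shortage were followed in the liver of mice that lacked Nnmt, nicotinamide N-methyltransferase, in hepatocytes. The set held 9 genes, chosen by name: Alas1, Alad, Uros, Urod, Cpox, Ppox and Fech for synthesis, Hmox1 for breakdown, and Eif2ak1, which encodes the heme-regulated kinase HRI. All 9 were among the 33212 genes of the count table, and all 9 were among the 15291 genes with enough counts to be tested. The Nnmt KO mice were Alb-Cre::Nnmt flox/flox, and the control mice were Nnmt flox/flox and are called WT in the sample labels. All 8 mice were males on the C57BL/6 background. Both genotypes ate the MCD diet, free of methionine and choline, over 8 weeks, so the diet was not a variable, and the age of the mice is not given in the sources used here. The albumin promoter drives Cre in hepatocytes, and the paper describes the knockout as specific to them. Whether the other cells of the liver kept the floxed gene intact was not tested. Each genotype had 4 mice with 1 RNA-seq library of whole liver per mouse, and letters a to d name the libraries of each genotype, since the columns of the table give no mouse number.

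Heme is an iron-containing ring built partly in mitochondria and partly in the cytosol. ALAS joins glycine to succinyl-CoA in the first and rate-limiting step, ALAD, UROS and UROD assemble and trim the ring in the cytosol, and CPOX, PPOX and FECH finish it in mitochondria, where FECH inserts the iron. The liver is a large producer of heme outside the bone marrow, since cytochromes P450 and catalase need it. ALAS1 is the form of the first enzyme used by most tissues, ALAS2 the form of red cell precursors. Heme oxygenase opens the ring to biliverdin, carbon monoxide and iron. When heme is short, HRI phosphorylates the translation factor eIF2α, and ATF4 and its targets follow.

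No heme gene of the set passed the comparison of genotypes after adjustment over all genes. By edgeR's quasi-likelihood test, 1 of the 9 genes, Uros, had an unadjusted p under 0.05 and was lower in Nnmt KO mice, where 7.13% of all tested genes were lower and 5.45% were higher at that threshold, a share not far from that of the members. None of the 9 passed an adjusted p of 0.05 over all tested genes with edgeR, which 0.32% of all genes passed. DESeq2 also gave 1 gene at an unadjusted p under 0.05 and 0 genes at an adjusted p under 0.05, against 3.28% of the genes to which it gave an adjusted p. Of the log2 fold changes, 4 were below and 5 above zero, with a median of 0.00 against 0.02 over all tested genes. The median size of the change, regardless of its sign, was 0.10 against 0.19 over all tested genes. The libraries of the genotypes did not overlap for 1 member, against 8.16% of all genes.

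The libraries held between 75020072 and 87934362 counts, so that 3 counts stood for at most 0.04 CPM (counts scaled to the library total and by TMM factors), far below the level of every member. Nnmt itself averaged 57.1 ± 23.1 CPM in Nnmt KO livers and 139 ± 60.5 CPM in control livers (SD, n = 4 each). Nnmt KO library d, at 83.0 CPM, was close to control library d, at 84.9 CPM, and the adjusted p of Nnmt was 0.123 by edgeR's test. All 7 hepatocyte markers were detected, Alb at 75662 ± 18931 CPM in Nnmt KO and 72972 ± 11287 CPM in control mice (SD, n = 4 each). Nnmt KO library a stood apart in composition, with a TMM factor of 1.21, where libraries b to d of its genotype had 0.952 to 0.977. The summed level of 7 hepatocyte markers was lowest there, at 77722 CPM, with libraries b to d between 116134 and 130856 CPM and control libraries between 87894 and 129611 CPM. The sum of 7 stellate cell and fibroblast markers was highest there, at 547 CPM, with libraries b to d between 147 and 226 CPM and control libraries between 143 and 302 CPM. In whole liver, fewer cells of a type and less RNA per cell cannot be told apart. Library a was also the lowest of the 4 Nnmt KO libraries for 7 of the 9 members. Without it, the log2 fold change of Alas1 was 0.33, of Alad -0.18, of Uros -0.38, of Urod -0.04, of Cpox 0.08, of Fech 0.07 and of Eif2ak1 -0.08.

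**Figure D1:**
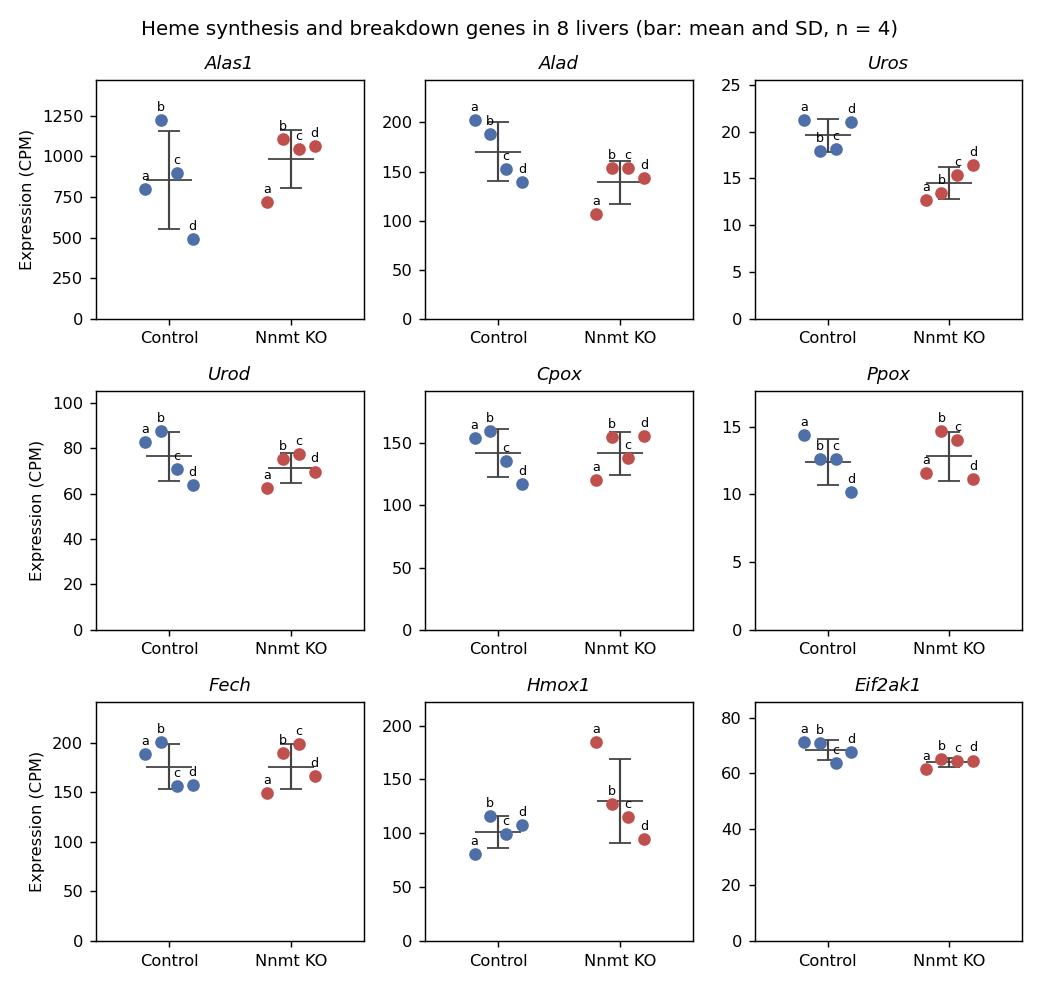
Expression of the 9 genes in each library, in CPM on linear axes that start at 0, with control mice in blue and Nnmt KO mice in red. Letters name the libraries and the bars give the mean and SD of 4 mice. Only the Uros panel shows the genotypes apart, with Nnmt KO libraries at 12.7 to 16.4 CPM and control libraries at 17.9 to 21.3 CPM.

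To set the genes against each other, CPM was divided by the length of each gene's merged exons in kilobases (kb). By this measure the mean level over 8 libraries ran from 149 CPM per kb for Alas1 to 2.80 CPM per kb for Ppox. Alad followed Alas1 at 82.8 CPM per kb and Hmox1 at 66.0 CPM per kb, and the ranges of these 3 genes overlapped one another. Urod stood below them at 28.5 CPM per kb. Its lowest library, at 24.2 CPM per kb, was just above the highest library of Cpox, at 24.0 CPM per kb. Cpox had a mean level of 21.3 CPM per kb, and each of its libraries was above every library of Fech. Fech and Eif2ak1 had nearly the same level, 12.7 and 11.7 CPM per kb, and their libraries overlapped. Uros, at 4.76 CPM per kb, was above Ppox in every library. Merged exons count the sequence of all isoforms, which lowers the level of a gene with long alternative exons, such as Fech with 13838 bases. Without division by length, 4 of the 9 ranks stayed, those of Alas1, Eif2ak1, Uros and Ppox.

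The members also differed in how much they varied between mice of one genotype. Alas1 was the most variable, with a biological coefficient of variation of 24.8% against a median of 19.6% over all tested genes, and Hmox1 came next at 20.1%. The other 7 members were below that median. Eif2ak1, at 11.2%, was lower than all but 0.32% of tested genes. Within a genotype, the highest control library had 2.50 times the Alas1 level of the lowest, while for Eif2ak1 this ratio was 1.12.

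Promoter sequence was looked at for the first enzyme and for the members with a GATA or NRF1 motif, as these are the classical elements of this pathway: NRF1 serves genes of mitochondria, and GATA factors drive the enzymes in red cell precursors. RefSeq windows of GRCm38.p6, from 250 bases before to 50 bases after a transcript start, were held for 7 of the 9 members, in 10 windows, and none was held for Fech and Hmox1. The NRF1 motif, searched as GCGCNTGCG on both strands, lay in 3 windows, 1 of Uros and both of Alas1, and in 6.31% of all 32851 windows. The Alas1 windows overlap and hold the same NRF1 matches. Those of Alad overlap as well, so a site in a shared stretch counts in both windows. The GATA motif, GATAA on both strands, lay in 3 windows, those of Eif2ak1 and Cpox and the second of Uros, and in 25.4% of all windows. A match is a run of letters and does not show that a factor binds there. The stretches below are printed 5′ to 3′ on the strand of the gene, with the motif or its reverse complement in capitals. They lie at chr9:106247906-106247935 (minus strand, motif 195 bases before the second Alas1 start and 30 bases into the first transcript), chr7:133709323-133709352 (minus strand, 47 bases before the first Uros start), chr7:133702551-133702580 (minus strand, 68 bases before the second Uros start) and chr16:58670110-58670139 (plus strand, 86 bases before the Cpox start).
Alas1, NRF1 motif: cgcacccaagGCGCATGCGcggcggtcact
Uros start 1, NRF1 motif: cggtcacactGCGCCTGCGcgagtcccgcc
Uros start 2, GATA motif: tctccctcagccTTATCagtgacagagggc
Cpox, GATA motif: aaagcgcctatcTTATCagtccaagcacct

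The GC box, searched as GGGCGG, lay in 7 of the 10 windows and in 35.7% of all windows, and the E-box CACGTG in 4 of the 10 and in 7.15% of all. The letters of the antioxidant response element (TGACNNNGC), the amino acid response element (TGATGNAA) and the core of the cyclic AMP response element (TGACGT) were in 0 of the 10 windows and in 12.4%, 3.97% and 7.51% of all windows. The Uros gene thus held one start with an NRF1 motif and another, further downstream, with a GATA motif, and the count table does not separate the transcripts of the 2 starts.

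Positions are those of GENCODE annotation of GRCm38. Uros, uroporphyrinogen III synthase (ENSMUSG00000030979, chromosome 7, 133686243 to 133710072), closes the linear tetrapyrrole into the ring in the natural orientation. It was the one member past an unadjusted p of 0.05, and it did not pass after adjustment. Its levels were 12.7, 13.4, 15.4 and 16.4 CPM in Nnmt KO libraries (a to d, as in all such lists) and 21.3, 17.9, 18.1 and 21.0 CPM in control libraries. The 4 Nnmt KO values all lay under the 4 control values, which for 4 mice against 4 gives the smallest p an exact permutation test allows (two-sided, p = 0.0286). The log2 fold change was -0.44 (standard error 0.12, 95% interval -0.70 to -0.17), a level 0.740 times that of control mice. By edgeR's quasi-likelihood test its unadjusted p was 0.00439 and its Benjamini-Hochberg adjusted p was 0.16. Over 14 alternative fits and tests, its log2 fold change lay between -0.50 and -0.37 and its unadjusted p between 0.00192 and 0.0286, while its adjusted p, between 0.0551 and 0.492, never passed 0.05.

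A pair of facts about the locus bear on the Uros value. Uros overlaps Bccip, a gene on the opposite strand, by 740 bases, and Bccip had 31101 counts against 11169 for Uros over the 8 libraries. Since the strand setting of the counting is not given in the sources used here, reads in the overlap cannot be told apart. Bccip, whose product binds BRCA2 and CDKN1A, was at 34.6, 38.8, 40.2 and 52.8 CPM in Nnmt KO libraries and 55.2, 53.4, 59.7 and 45.8 CPM in control libraries, so its groups overlapped. Its log2 fold change was -0.36 (edgeR unadjusted p = 0.0246, adjusted p = 0.307). The genes around Uros also tended to be lower. Within 5 Mb on each side, the median log2 fold change of 37 tested genes was -0.25, against 0.03 for the 14137 genes on other chromosomes. At an unadjusted p under 0.05, 13 of these 37 were lower and 2 were higher in Nnmt KO mice. Over all tested genes, 7.13% were lower and 5.45% were higher. Values below that of Uros were found in 5 of the 37 neighbours (13.5%) and in 6.18% of the genes on other chromosomes. The part of this regional shift in the Uros value was not tested.

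**Figure D2:**
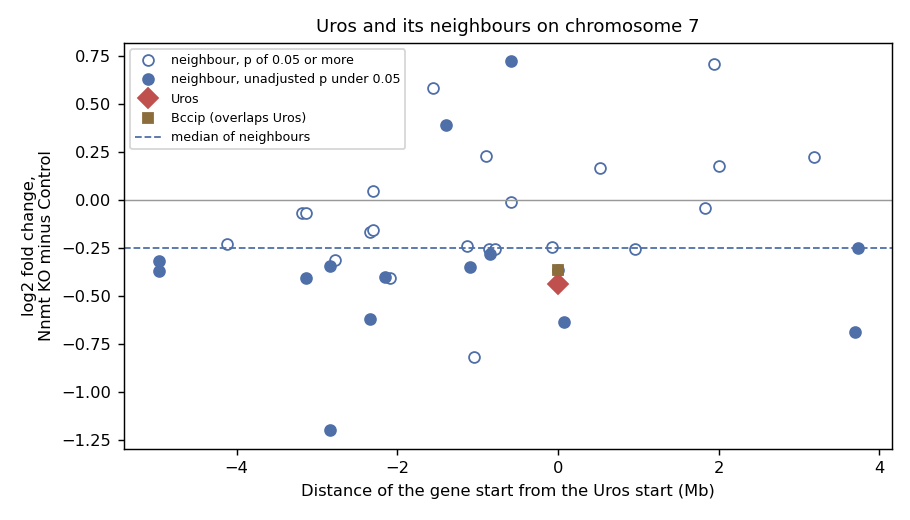
Log2 fold change (Nnmt KO minus control) of the 37 tested genes whose start lies within 5 Mb of the Uros start, against distance in Mb. Filled circles mark an unadjusted p under 0.05, the red diamond is Uros (-0.44), the brown square is Bccip (-0.36) and the dashed line is the neighbours' median (-0.25). Most neighbours at negative distances lie below 0, while those at positive distances are mixed.

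Alas1 (ENSMUSG00000032786, chromosome 9, 106233455 to 106248654), the rate-limiting enzyme, was at 716, 1105, 1045 and 1062 CPM in Nnmt KO libraries a to d. The control libraries a to d were at 798, 1227, 898 and 490 CPM. Control mice thus held both the highest and the lowest value, and the genotypes overlapped. The log2 fold change was 0.20 (standard error 0.25, 95% interval -0.34 to 0.75), with an adjusted p of 0.776 by edgeR's test. Single mice moved this value more than for any other synthesis gene: it was 0.01 without control library d, 0.44 without control library b and 0.33 without Nnmt KO library a, and none of these fits passed an unadjusted p of 0.05. At this spread, a rise of up to 0.75 or a fall of up to 0.34 on the log2 scale lies inside the interval.

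Alad, the zinc enzyme that joins 2 molecules of aminolevulinate (ENSMUSG00000028393, chromosome 4, 62509169 to 62519918), was at 107, 154, 154 and 143 CPM in Nnmt KO libraries and at 203, 188, 153 and 139 CPM in control libraries. The lowest value was that of Nnmt KO library a, the highest pair were control libraries a and b, and the rest were mixed. On the log2 scale the difference was -0.29 (standard error 0.16, 95% interval -0.64 to 0.06, edgeR adjusted p = 0.478). It was -0.18 without Nnmt KO library a or without control library a, and it was -0.38 without control library d, where the unadjusted p was 0.0398.

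The next enzymes were level between genotypes within their errors. Urod, uroporphyrinogen decarboxylase (ENSMUSG00000028684, chromosome 4, 116989965 to 116994413), was at 62.6, 75.2, 77.5 and 69.8 CPM in Nnmt KO libraries and at 82.9, 87.8, 71.1 and 64.0 CPM in control libraries, a log2 fold change of -0.10 (95% interval -0.38 to 0.17). Its 2 highest libraries were control libraries and the rest were mixed. Cpox, coproporphyrinogen oxidase (ENSMUSG00000022742, chromosome 16, 58670292 to 58717636), was at 120, 155, 138 and 156 CPM in Nnmt KO libraries and at 154, 160, 136 and 117 CPM in control libraries. Its means were 142 ± 17.3 and 142 ± 19.3 CPM (SD, n = 4 each), and its log2 fold change was 0.00 (95% interval -0.29 to 0.30).

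The last steps gave the same picture. Ppox, protoporphyrinogen oxidase (ENSMUSG00000062729, chromosome 1, 171275990 to 171281186), the member of lowest level per kb, was at 11.6, 14.7, 14.0 and 11.1 CPM in Nnmt KO libraries and at 14.4, 12.6, 12.6 and 10.2 CPM in control libraries. The difference for Ppox was 0.05 on the log2 scale (95% interval -0.27 to 0.36), and it shares 907 bases with B4galt3 on the opposite strand, whose log2 fold change was -0.06. Fech, ferrochelatase (ENSMUSG00000024588), was at 149, 190, 199 and 166 CPM in Nnmt KO libraries and at 189, 201, 156 and 157 CPM in control libraries. Its means were 176 ± 22.6 and 176 ± 22.7 CPM (SD, n = 4 each), and its log2 fold change was 0.00 (95% interval -0.29 to 0.30). For these 4 enzymes the adjusted p from edgeR's test lay between 0.776 and 0.997, and a change of the size seen for Uros, -0.44, lies outside each of the 4 intervals.

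Outside the set, Alas2, the ALAS form of red cell precursors, was at 63.4 ± 10.5 CPM in Nnmt KO and 79.4 ± 10.9 CPM in control mice (SD, n = 4 each). The log2 difference was -0.32 (edgeR unadjusted p = 0.0484, adjusted p = 0.391). Its call was lost in 8 of 13 alternative fits. Of the erythroid markers, Ahsp was not analysed here, and the 4 globin genes had log2 fold changes of -0.13 to -0.19. The sum of the erythroid markers ran from 591 to 767 CPM in Nnmt KO and from 619 to 1005 CPM in control libraries. Whether blood left in the tissue had a part in the Alas2 value was not tested.

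Hmox1, the inducible heme oxygenase (ENSMUSG00000005413, chromosome 8, 75093621 to 75100589), was at 185, 127, 115 and 94.8 CPM in Nnmt KO libraries and at 80.4, 116, 99.3 and 108 CPM in control libraries. The 2 highest libraries were Nnmt KO libraries a and b, and the remaining libraries of the genotypes overlapped. Its log2 fold change was 0.37 (standard error 0.19, 95% interval -0.06 to 0.80), and its p by edgeR's test was 0.0823 before and 0.455 after adjustment. This value rested on single mice. Without Nnmt KO library a it was 0.15 (unadjusted p = 0.319 by edgeR's test), and without Nnmt KO library d it was 0.49 (unadjusted p = 0.0227). Macrophages of the liver also make Hmox1 as they clear red cells. The sum of 9 Kupffer cell and macrophage markers was highest in the same Nnmt KO library a, at 748 CPM, and ran from 568 to 585 CPM in the other Nnmt KO libraries and from 372 to 728 CPM in control libraries. Control library d had a sum of 728 CPM with Hmox1 at 108 CPM. In control library a the sum was 372 CPM and Hmox1 was at 80.4 CPM. None of these 9 markers passed an unadjusted p of 0.05 by edgeR's test, though 8 of the 9 were higher by sign in Nnmt KO mice. Their part in the Hmox1 value was not tested.

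Hmox2, the constitutive heme oxygenase, was at 71.1, 86.2, 86.0 and 88.6 CPM in Nnmt KO libraries and at 112, 108, 102 and 113 CPM in control libraries, with no overlap. The fold change on the log2 scale was -0.39 (standard error 0.10, 95% interval -0.62 to -0.16), with an adjusted p of 0.137 from edgeR and of 0.0201 from DESeq2. The intervals of the 2 heme oxygenases do not overlap, with Hmox1 higher and Hmox2 lower by sign, but the difference between the genes was not tested. Of the genes that carry the products onward, none passed an unadjusted p of 0.05 by edgeR's test: the biliverdin reductases Blvra and Blvrb had log2 fold changes of 0.11 and 0.14, and Ugt1a1, which conjugates bilirubin, had -0.32 (standard error 0.21). The Ugt1a1 value was -0.18 without Nnmt KO library a, -0.20 without control library b and -0.47 without control library c, where its unadjusted p was 0.0319.

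Among 19 genes that move or scavenge heme, porphyrins or the iron for them, 2 were lower and 1 was higher at an unadjusted p under 0.05 by edgeR's test, and 0 passed an adjusted p of 0.05. Of all tested genes, 7.13% were lower, 5.45% were higher and 0.32% passed the adjusted threshold. Hpx, the plasma protein hemopexin that binds free heme, was at 8922, 12900, 10759 and 10278 CPM in control libraries and 5686, 7511, 7477 and 8148 CPM in Nnmt KO libraries, with no overlap. For Hpx the log2 fold change was -0.57 (standard error 0.18, edgeR unadjusted p = 0.00916, adjusted p = 0.215, DESeq2 adjusted p = 0.0122). Hpx also lies on chromosome 7 among genes that were lower: 77 neighbours within 5 Mb had a median of -0.25, with 29 lower and 0 higher at an unadjusted p under 0.05 by edgeR's test. Those counts stand beside the 7.13% and 5.45% of all tested genes. Slc25a37, mitoferrin-1, which brings iron into mitochondria, had -0.41 (edgeR unadjusted p = 0.0103, adjusted p = 0.224). Haptoglobin (Hp), the hemoglobin counterpart of Hpx, had -0.08 (95% interval -0.47 to 0.31).

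**Figure D3:**
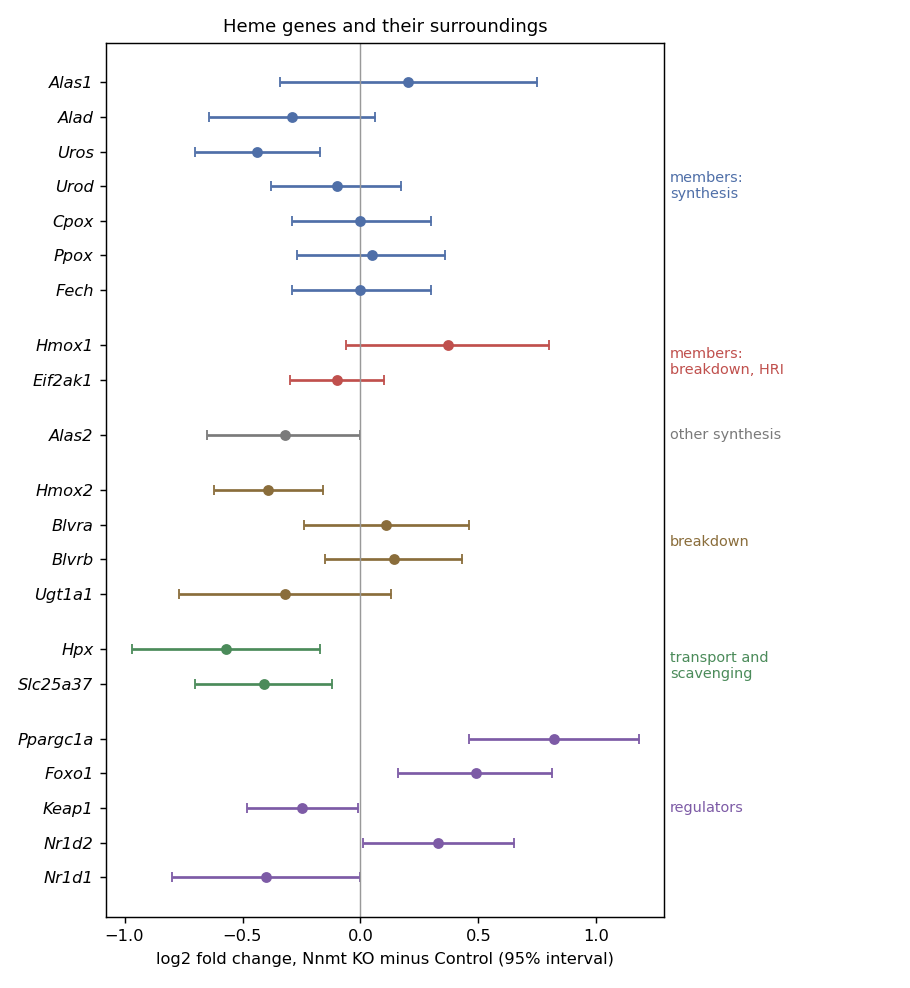
Log2 fold change (Nnmt KO minus control, 4 mice each) with its 95% interval from edgeR's test for the 9 members and for genes around them, grouped by role. Among the members, only the interval of Uros (-0.70 to -0.17) leaves out 0. Outside them, the intervals of Hmox2, Hpx and Slc25a37 lie below 0, and those of Ppargc1a and Foxo1 above it. Those of Alas2, Keap1 and Nr1d1 also lie below 0 and that of Nr1d2 above it, each with an end close to 0.

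Among 13 regulators of Alas1 and Hmox1, 2 were lower and 3 were higher at an unadjusted p under 0.05 by edgeR's test, and 0 passed an adjusted p of 0.05. Of all tested genes, 7.13% were lower, 5.45% were higher and 0.32% passed the adjusted threshold. Ppargc1a encodes PGC-1α, the fasting-induced coactivator that drives Alas1 together with NRF1 and FOXO1. It was at 15.4, 18.5, 23.1 and 26.6 CPM in Nnmt KO libraries and at 12.9, 12.3, 10.5 and 11.8 CPM in control libraries, with no overlap. The log2 fold change of Ppargc1a was 0.82 (standard error 0.17, edgeR unadjusted p = 0.000409, adjusted p = 0.0711, DESeq2 adjusted p = 0.00102). Foxo1 was also higher without overlap, by 0.49 (standard error 0.15, edgeR unadjusted p = 0.00709, adjusted p = 0.194). Nrf1, whose motif stands in the Alas1 windows printed above, had -0.08 (95% interval -0.37 to 0.22). Keap1, which holds NRF2 back, had -0.25 (edgeR unadjusted p = 0.0422, adjusted p = 0.374), and the heme-binding repressors Nr1d1 and Nr1d2 went opposite ways, with -0.40 and 0.33 (edgeR unadjusted p of 0.0484 and 0.0422). Bach1, the heme-sensing repressor of Hmox1, had 0.08, and Nfe2l2, which encodes NRF2, had -0.01.

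Of 10 other targets of NRF2, 5 were lower and 5 were higher by sign, and 0 were lower and 2 were higher at an unadjusted p under 0.05 by edgeR's test. Over all tested genes, 7.13% were lower and 5.45% were higher at that threshold. Ephx1, microsomal epoxide hydrolase, was higher by 0.50 (edgeR adjusted p = 0.196, DESeq2 adjusted p = 0.0418) and Nqo1, a quinone reductase, by 0.40 (edgeR adjusted p = 0.359). Gclc, a subunit of the glutathione synthesis enzyme, had -0.35 (edgeR unadjusted p = 0.076). Among 12 heme proteins of hepatocytes, the users of the product, 1 was lower and 1 was higher at the same threshold. The shares over all tested genes were again 7.13% and 5.45%. Cyp2e1, an ethanol- and acetone-oxidizing P450 that is on chromosome 7 as well, had -0.67 (edgeR unadjusted p = 0.0297, adjusted p = 0.328), and Tdo2, a tryptophan dioxygenase, had 0.63 (edgeR unadjusted p = 0.0201, adjusted p = 0.288). More of the other listed genes on chromosome 7 were lower than higher by sign. Atf5 had -0.63, Hbb-bt -0.19, Hbb-bs -0.16, Lyve1 -0.14 and Ppp1r15a -0.13, while Cebpg had 0.08 and Blvrb 0.14. Cyp4a14, a fatty acid hydroxylase, had 0.56 (edgeR unadjusted p = 0.0525). Catalase (Cat) had -0.10.

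Eif2ak1, the heme sensor HRI (ENSMUSG00000029613, chromosome 5, 143817788 to 143904251), was the steadiest member. It was at 61.5, 65.2, 64.3 and 64.6 CPM in Nnmt KO libraries and at 71.3, 70.9, 63.7 and 67.7 CPM in control libraries, and control library c lay among the Nnmt KO libraries. Its log2 fold change was -0.10 (standard error 0.09, 95% interval -0.30 to 0.10, edgeR adjusted p = 0.694). It shares 1548 bases with Aimp2 and 6945 bases with Ankrd61, both on the opposite strand. Of the other eIF2α kinases, Eif2ak2 (PKR, which senses double-stranded RNA) had 0.73 (edgeR unadjusted p = 0.00874, adjusted p = 0.211), with overlapping libraries. Eif2ak3 (PERK, the kinase of the endoplasmic reticulum) had -0.28 (edgeR unadjusted p = 0.0328, adjusted p = 0.338), and Eif2ak4 (GCN2, which senses uncharged tRNA) had -0.12 (edgeR adjusted p = 0.74). Oma1 and Dele1, which relay mitochondrial stress to HRI, had -0.03 and -0.15. These are mRNA levels, and kinase activity was not measured in these files.

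The listed response to heme deficiency through HRI holds ATF4 and its targets, and also HRI itself and the genes of the eIF2 subunits. Of its 16 genes, Eif2ak1 included, 7 were lower and 1 was higher at an unadjusted p under 0.05 by edgeR's test, 6 had libraries that did not overlap, and 1 passed an adjusted p of 0.05. Over all tested genes, 7.13% were lower, 5.45% were higher, 8.16% had libraries that did not overlap and 0.32% passed the adjusted threshold. The gene past the adjusted threshold was Trib3, a pseudokinase and ATF4 target, at 31.0, 36.0, 34.8 and 19.1 CPM in Nnmt KO and 80.9, 74.0, 85.5 and 72.1 CPM in control libraries. The Trib3 difference was -1.37 on the log2 scale (standard error 0.18, edgeR adjusted p = 0.0188). The adjusted p was 0.0543 without Nnmt KO library c, 0.0967 without control library a and 0.0658 without control library c, and under 0.05 in the other 10 alternatives. The others that were lower at an unadjusted p under 0.05 were Atf3, Atf4, Atf5, Asns, Chac1 and Ddit3, with log2 fold changes of -0.56 (Atf4) to -1.74 (Chac1), and Grb10, an adaptor of the insulin receptor, was higher by 0.72. The list's median was -0.11, since the genes of the eIF2 subunits, Cebpb, Cebpg and Ppp1r15a did not pass. ATF4 and its targets answer all 4 eIF2α kinases, and the list was written with earlier results of these data known, so its direction is not independent evidence.

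**Figure D4:**
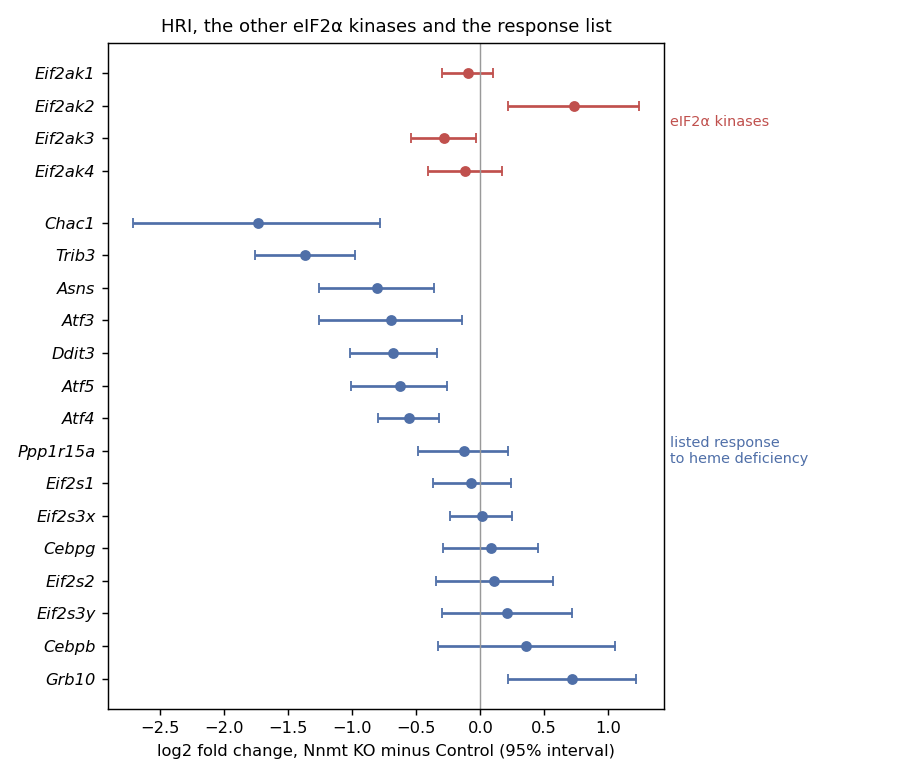
Log2 fold change (Nnmt KO minus control, 4 mice each) with its 95% interval from edgeR's test for the 4 eIF2α kinases (red) and the other 15 genes of the heme deficiency response list (blue, ordered by value). Eif2ak1 lies at -0.10 with an interval that holds 0, while 7 response genes from Chac1 to Atf4 lie below 0 and Grb10 lies above it.

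Counted together, the pathway lists outside the 9 members held 81 tested genes, of which 15 were lower and 9 were higher at an unadjusted p under 0.05 by edgeR's test, and 1, Trib3, passed an adjusted p of 0.05. The shares over all tested genes were 7.13%, 5.45% and 0.32%. The number at the unadjusted threshold is carried in part by 1 mouse: without Nnmt KO library d it was 14 in place of 24. Some of the named genes lost their unadjusted call in part of 13 alternatives: Keap1 in 7, Eif2ak3 in 6, Nqo1 in 5, Cyp2e1 and Tdo2 in 3 each and Slc25a37 in 1. The calls of Hmox2, Hpx, Ppargc1a, Foxo1, Ephx1, Eif2ak2 and Trib3 at that threshold held in all 13.

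Over the 8 libraries, the genes whose log2 CPM was most like that of Alas1 were Tusc5 (Pearson r = 0.98), Ces2h (r = 0.979) and Agpat9 (r = 0.969). For Hmox1 they were Zfp59 (r = 0.982), Atp8b2 (r = 0.974) and Pcdhga9 (r = 0.97). Among the members, Cpox was most like Alas1 (r = 0.825), followed by Urod (r = 0.67) and Fech (r = 0.65), while Uros had r = -0.363. These values are descriptions over 8 mice, picked as the highest of 15291 genes, and they share the libraries' depth and composition.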

How the data were processed

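RNA-seq covered the liver of 4 Nnmt KO and 4 control mice on the MCD diet (1 library per mouse). The table that the authors deposited holds raw, whole-number counts per gene. The paper states HISAT2 for alignment and quantification, and the submitters' processing notes name HISAT2, StringTie and mm10. Tool versions, annotation and strand setting are not given in the sources used here. The paper names a KAPA HyperPrep kit and the sample labels NEBNext Ultra. Of 33212 genes, 15291 passed edgeR's filterByExpr (minimum count 10). TMM scaling and the quasi-likelihood test used edgeR 4.0.16 in R 4.3.3, with Benjamini-Hochberg adjustment over all tested genes, and the steps were tested on simulated data. Of 100 genes simulated with a log2 change of 0.5 in size, 5 passed an adjusted and 60 an unadjusted p of 0.05. Of 100 with a size of 1.5, 71 passed the adjusted threshold, as did 6 unchanged genes. Alternatives were DESeq2 1.42.0, its size factors, library size alone, no low count filter, normalization without chromosome 7, exact permutation tests (members alone) and each library left out. Depth was 75020072 to 87934362 counts per library, and precision rests on 4 mice per genotype. Log2 CPM used a prior count of 2. Genes were positioned by GENCODE M21 (GRCm38) and promoters came from RefSeq. The members and lists were chosen with earlier results of these data known. Named genes are the members, Nnmt, the eIF2α kinases, the genes of each list past an adjusted p of 0.05 or else up to 3 with the smallest p, and the 3 genes most like Alas1 and Hmox1. Other genes named were chosen after their values were seen: Bccip, the further genes of a count of 5 or fewer or of the HRI list, and genes given for their role (Blvra, Hp, Nrf1, Bach1, Nfe2l2, Cat, Oma1). Symbols that differ from the table's (such as Dele1) were matched by gene ID. Some listed genes are not reported here.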

Additional observations from a re-analysis of the deposited data

Results flagged for a closer look

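A pair of values stood apart from the other 3 of their genotype, and both belonged to Nnmt KO library a. Its TMM factor was 1.209, with libraries b to d between 0.9524 and 0.9774 (the gap to the nearest was 0.903 of the whole range, past the 95% limit of Dixon's test for 4 samples). Its Alas1 level was 716 CPM, with libraries b to d between 1045 and 1105 CPM (0.846 of the range). Chance marks about 1 in 20 groups, which is 1.1 of the 22 groups examined.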

How the results depend on the processing

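No paired analysis was possible because the columns carry no mouse number, although the labels share the numbers 4 and 5 between genotypes. Over 14 alternatives per member, Alas1, Alad, Uros, Urod, Hmox1 and Eif2ak1 kept their sign, and Uros kept its side of the unadjusted threshold in all 14. The signs of Cpox, Ppox and Fech turned around 0. Normalization without chromosome 7 gave -0.01 for Cpox and -0.01 for Fech, and leaving out a library gave -0.08 to 0.08 for Cpox, -0.04 to 0.14 for Ppox and -0.06 to 0.08 for Fech. Leaving out a library gave -0.38 to -0.18 for Alad and 0.15 to 0.49 for Hmox1, each past an unadjusted p of 0.05 in 1 fit (Alad without control d, Hmox1 without Nnmt KO d). The count of members at that threshold then ran from 1 to 2, and that of pathway list genes from 14 to 26. By CPM without division by length, 4 of 9 level ranks stayed. Outside the members, 520 values of 40 genes were recomputed: 443 kept their side and sign, 49 lost the unadjusted threshold, 23 gained it and 5 changed sign. Those 5 came with a library left out, where Col1a2 ran from -0.23 to 0.61, Col3a1 from -0.40 to 0.71, Hbb-bs from -0.25 to 0.01, Lyve1 from -0.37 to 0.04 and Pecam1 from -0.02 to 0.18. The cause of these changes was not tested. Scaling moved the median of all genes by at most 0.06. DESeq2 called 477 genes at an adjusted p under 0.05 and edgeR 49. Low counts limit none of the members, and 4 mice per genotype limit the precision.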

Other observations

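Marker genes of other liver cell types were summed in each library. The 5 endothelial markers ran from 152 to 175 CPM in Nnmt KO and from 123 to 237 CPM in control libraries, and 0 of them passed an unadjusted p of 0.05 by edgeR's test. Over all tested genes, 7.13% were lower and 5.45% were higher at that threshold. The 5 cholangiocyte markers were all higher by sign in Nnmt KO mice, with sums of 88.8 to 278 CPM against 49.9 to 167 CPM, and library a was again the highest. Only Epcam, a surface protein of bile duct cells, passed that threshold among them. Its log2 fold change was 0.80, with an adjusted p of 0.306 from edgeR's quasi-likelihood test. Only Lrat, which stores retinol as esters, passed it among the 7 stellate cell and fibroblast markers. Its log2 fold change was 0.34, with an adjusted p of 0.366 from edgeR's quasi-likelihood test. Over 13 alternatives, the unadjusted call was lost in 7 for Lrat and in 5 for Epcam.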
